A study of Homo sapiens with 6 samples.

Results

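The genes described here encode the ligands of NKG2D, the activating receptor that natural killer (NK) cells and many cytotoxic T cells use to recognise stressed or transformed cells. The family has 8 members, ULBP1, ULBP2, ULBP3, RAET1E, RAET1G, RAET1L, MICA and MICB, out of 19470 genes in the count table. It was chosen because ULBP1 had one of the larger increases with isolinderalactone (ILL), so the differences of the members between ILL and control are given below as a description. The members were part of the fit across all genes, and whether they passed its cutoffs is stated but is no independent evidence. RNA was sequenced from HCCC9810, an established human cholangiocarcinoma (CCA) cell line of wild type genotype, after 24 h with 20 μM ILL, a sesquiterpene lactone, or after 24 h with its vehicle, DMSO. There were 3 control and 3 ILL libraries from this 1 cell line, the labels do not say whether they came from separate cultures, and p-values for other genes therefore measure the spread between these libraries, which may be technical.

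NKG2D ligands are distant relatives of the MHC class I proteins that present peptides, and healthy cells display little of them. They are known to appear on the surface of tumour cells, virus-infected cells and cells under DNA damage, heat or amino acid stress, where they mark the cell for killing. MICA and MICB are transmembrane proteins whose genes lie in the MHC region. The ULBP and RAET1 genes form a separate cluster, and their products ULBP1, ULBP2, ULBP3 and RAET1L are held at the membrane mainly by a lipid anchor, while those of RAET1E and RAET1G have a transmembrane segment. Ligand on the surface can also be released by proteases, so a transcript level does not give the amount displayed, and no protein was measured in these libraries.

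Library totals lay between 34282764 and 37758569 counts. The keratins that mark biliary epithelium were abundant: KRT7 had 61811 to 99396 counts and KRT19 had 61911 to 80323 counts over the 6 libraries. Of 8 NK and T cell markers none passed the filter on low counts, CD3D, NKG7 and CD247 were at 0 in every library, and the summed level of all 8 was 0.0566 to 0.0773 CPM (counts scaled to library size) in controls and 0.143 to 0.314 CPM with ILL. Of 7 fibroblast and endothelial markers 4 were tested and the sum of all 7 was 10.5 to 13.3 CPM in controls and 14.9 to 18.6 CPM with ILL, most of it COL1A1. VWF, at 2, 13 and 0 counts in controls and 25, 23 and 13 counts with ILL, was the 1 of these 4 past the cutoffs given below. The part of these markers in the results was not tested.

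ILL-treated cells held more transcript of most ULBP and RAET1 genes and less of both MIC genes. All 8 ligand genes passed the filter on low counts. With the cutoffs of the study's methods, an adjusted p below 0.05 together with more than 2-fold or less than 0.5-fold the control level, 3 of the 8 were higher with ILL, namely ULBP1, ULBP2 and RAET1L, and 1 of the 8, MICB, was lower. Of all 13066 genes tested with edgeR's quasi-likelihood test, 12.5% were higher and 11.4% were lower by the same cutoffs. By the adjusted p alone 5 of the 8 were higher and 2 of the 8 were lower, against 36.2% and 36.9% of all genes. In 5 of the 8 every ILL library lay above every control library and in 2 of the 8 every ILL library lay below, against 37.5% and 38.0% of all genes. The median log2 fold change was 0.69 over the 8 ligand genes and -0.0012 over all genes tested. Because the family was chosen on this contrast, nothing is read from these shares.

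**Figure D1:**
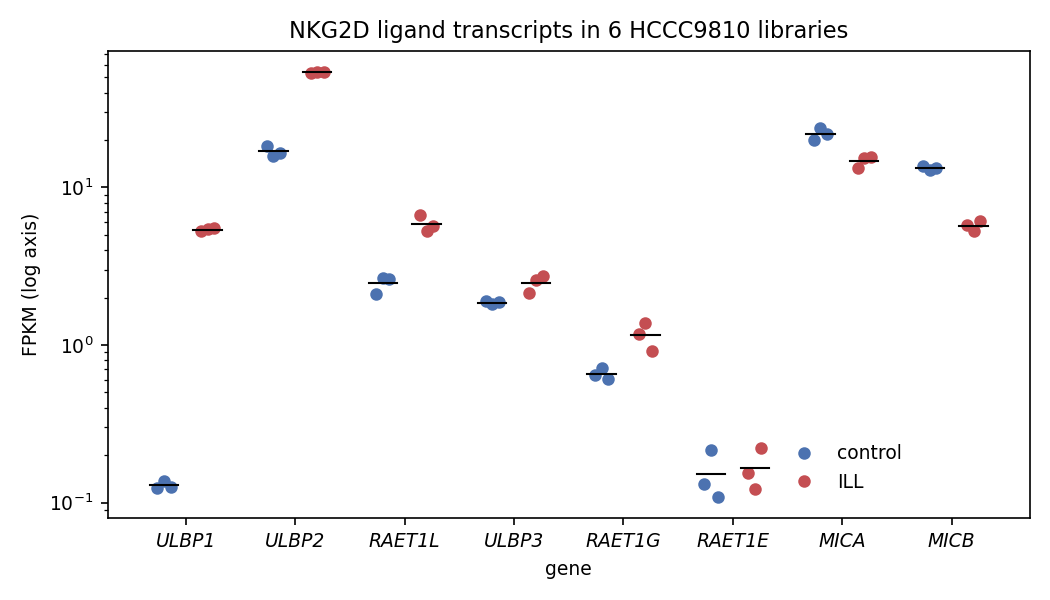
FPKM of each NKG2D ligand gene (vertical axis, logarithmic) in the 3 control libraries (blue) and the 3 ILL libraries (red), with a black line at each group mean. ULBP1 moves from a mean of 0.129 to 5.39 FPKM, ULBP2 from 17.0 to 53.7 FPKM, both MIC genes sit lower with ILL, and the groups overlap only for RAET1E.

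ULBP1, a ligand known to be induced through the amino acid and unfolded protein stress pathways, was nearly silent in control cells. It had 15, 15 and 14 counts in control libraries 1 to 3 and 603, 617 and 632 counts in ILL libraries 1 to 3. Both groups were tight and far apart, with the lowest ILL library at 603 counts against a highest control library of 15. Its level was 0.403 ± 0.021 CPM (SD, n = 3) in controls and 17.7 ± 0.45 CPM (SD, n = 3) with ILL. The log2 fold change was 5.45 (standard error 0.18), or 43.7-fold. Standard errors here and below were worked back from the edgeR test, as the log2 fold change divided by the square root of its F statistic. DESeq2 gave a larger standard error, 0.26, for ULBP1, so 0.18 may be too small. The fold change was the value that chose the family, and it ranked 16 from the top among the 13066 genes. The control level rests on 44 counts in all, for which the exact 95% Poisson interval is 32.0 to 59.1 and covers counting error only. In these bulk libraries, more cells with the transcript and more transcript per cell cannot be told apart.

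ULBP2, the most abundant ligand transcript with ILL, had 977, 762 and 805 counts in controls and 2660, 2689 and 2700 counts with ILL. The ILL libraries were within 40 counts of each other, while control library 1 stood somewhat above the other two. Its log2 fold change was 1.73 (standard error 0.07), or 3.32-fold. RAET1L, the closest relative of ULBP2, had 107, 123 and 123 counts in controls and 321, 253 and 276 counts with ILL. ILL library 1 was the highest, and all ILL libraries lay above all controls. The log2 fold change of RAET1L was 1.33 (standard error 0.17).

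The remaining ULBP and RAET1 genes differed less. ULBP3 had 223, 193 and 202 counts in controls and 238, 287 and 304 counts with ILL, and its log2 fold change was 0.49 (standard error 0.15). RAET1G had 55, 55 and 48 counts in controls and 94, 111 and 74 counts with ILL, and its log2 fold change was 0.89 (standard error 0.30). In both genes the groups did not overlap, and both stayed below the cutoff of 2-fold. Without ILL library 3, the lowest of its group, the log2 fold change of RAET1G was 1.03 and the gene was past the cutoffs, while without ILL library 2 it was 0.73 and the adjusted p no longer passed. RAET1E, at 26, 39 and 20 counts in controls and 29, 23 and 42 counts with ILL, was the 1 member whose groups overlapped. Its log2 fold change was 0.20 (standard error 0.45), and it was -0.06 without ILL library 3, so that no direction can be given for it at this depth.

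MICA and MICB, the ligands of the MHC region, were lower with ILL. MICB had 1290, 1098 and 1151 counts in controls and 513, 466 and 546 counts with ILL, a log2 fold change of -1.15 (standard error 0.09). MICA had 1081, 1158 and 1074 counts in controls and 672, 777 and 791 counts with ILL, a log2 fold change of -0.50 (standard error 0.09). In both genes every ILL library lay below every control library. The difference in MICA was smaller, and its 0.707-fold level stayed above the cutoff of 0.5.

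**Figure D2:**
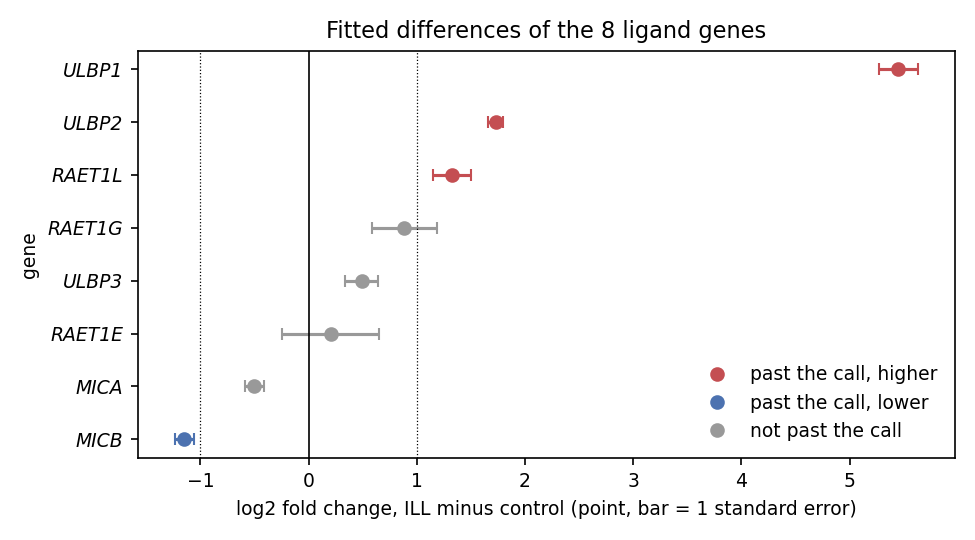
Fitted log2 fold change (horizontal axis, ILL minus control) of the 8 ligand genes, with dotted lines at 2-fold. Bars are 1 standard error, worked back from the edgeR test statistic. ULBP1 (5.45), ULBP2 (1.73) and RAET1L (1.33) lie past the upper line, MICB (-1.15) lies past the lower line, and the bar of RAET1E crosses zero.

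Levels were compared between genes per transcript length, as FPKM. In control cells the order was MICA at 21.9 ± 1.81 FPKM (SD, n = 3), ULBP2 at 17.0 ± 1.35 FPKM, MICB at 13.3 ± 0.43 FPKM, RAET1L at 2.47 ± 0.31 FPKM, ULBP3 at 1.86 ± 0.045 FPKM, RAET1G at 0.655 ± 0.050 FPKM, RAET1E at 0.152 ± 0.056 FPKM and ULBP1 at 0.129 ± 0.0068 FPKM. Neighbours in this order did not overlap between libraries, with the exception of RAET1E and ULBP1 at the bottom. With ILL the order was ULBP2 at 53.7 ± 0.42 FPKM (SD, n = 3), MICA at 14.7 ± 1.27 FPKM, RAET1L at 5.90 ± 0.71 FPKM, MICB at 5.72 ± 0.42 FPKM, ULBP1 at 5.39 ± 0.11 FPKM, ULBP3 at 2.49 ± 0.31 FPKM, RAET1G at 1.15 ± 0.24 FPKM and RAET1E at 0.166 ± 0.051 FPKM. RAET1L overlapped MICB, MICB overlapped ULBP1, and the other neighbours did not overlap. ULBP1 thus stood last of 8 in controls and level with MICB with ILL, although its level remained far below that of ULBP2.

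Both the sum and the make-up of the family differed with ILL. The summed level of the 8 ligands was 57.2, 58.0 and 56.9 FPKM in the control libraries and 87.7, 89.5 and 90.5 FPKM in the ILL libraries. The 6 ULBP and RAET1 genes together went from 22.2 ± 1.02 FPKM (SD, n = 3) to 68.8 ± 0.12 FPKM (SD, n = 3), and MICA with MICB from 35.1 ± 1.38 FPKM to 20.4 ± 1.32 FPKM. The MIC genes therefore made up 61.3% of the summed level in controls and 22.9% with ILL. ULBP2 made up 29.6% ± 2.50 in controls and 60.2% ± 0.67 with ILL, while ULBP1 went from 0.224% ± 0.0098 to 6.04% ± 0.032 (SD, n = 3 each). Within the clusters the balance also differed, since the FPKM ratio of ULBP2 to ULBP1 was 116 to 149 in control libraries and 9.78 to 10.1 in ILL libraries, and that of MICA to MICB was 1.47 to 1.85 and 2.30 to 2.92. These sums use the gene lengths behind the authors' FPKM values, 3211 bases for ULBP1 and 1402 bases for ULBP2, and as a share of summed counts ULBP1 made up 0.413% in controls and 11.8% with ILL.

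**Figure D3:**
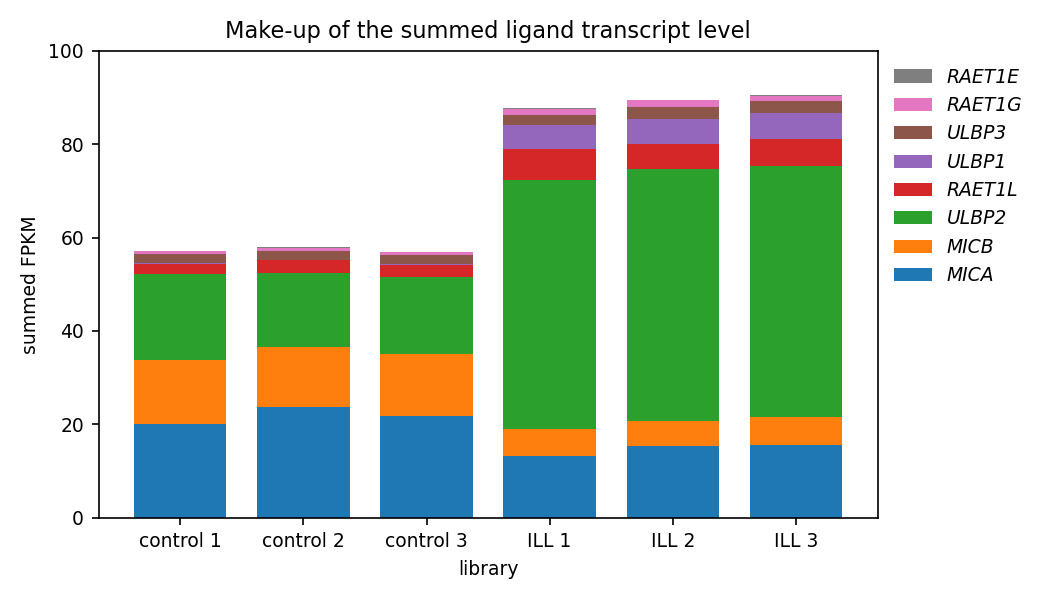
Summed FPKM of the 8 ligand genes (vertical axis) in each library, stacked by gene. The bars reach 56.9 to 58.0 FPKM in controls and 87.7 to 90.5 FPKM with ILL, with ULBP2 (green) as the main component of the ILL bars and MICA (blue) and MICB (orange) as that of the control bars.

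In GENCODE release 29 on GRCh38 the 6 ULBP and RAET1 genes lie on chromosome 6 within 185.7 kb. ULBP1 spans chr6:149964007-149973710 on the plus strand, ULBP2 lies just before it at chr6:149942000-149949235 on the plus strand, and RAET1L at chr6:150018334-150025532, ULBP3 at chr6:150063150-150069095, RAET1G at chr6:149916878-149923121 and RAET1E at chr6:149883375-149898102 lie on the minus strand. MICA at chr6:31399784-31415315 and MICB at chr6:31494881-31511124, both on the plus strand, lie within 111.3 kb on the other arm. The antisense gene RAET1E-AS1 overlaps RAET1E and RAET1G, AL355312.5 overlaps RAET1E on the same strand, and HCP5 overlaps MICA on the same strand. As the sources used here do not say whether counting used strand, or how overlaps were treated, reads of these pairs cannot be told apart, and the values of RAET1E, RAET1G and MICA carry that uncertainty.

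Members resemble each other to different degrees, and ULBP2 and RAET1L are near copies. The coding sequences of ULBP2 and RAET1L were identical at 96.7% of alignment columns, with gap columns counted as mismatches. By this measure MICA and MICB stood at 78.8%, ULBP1 and ULBP2 at 77.1%, and ULBP1 and MICA at 43.9%. Unequal lengths, such as 996 bases in MICA and 1149 in MICB against 732 in ULBP1 and 738 in ULBP2, add gaps and lower the value. Of the stretches of 100 bases in the transcript, 11.9% in ULBP2, 11.8% in RAET1L, 6.86% in ULBP3 and 1.48% in RAET1G also occurred in another family transcript, against 1.15% in ULBP1 and 0% in MICA, MICB and RAET1E. RAET1L counts were 11.0% to 16.1% of ULBP2 counts in control libraries and 9.41% to 12.1% in ILL libraries. How the authors' counting treated reads that match more than 1 gene is not given in the sources used here. The separate values of ULBP2, RAET1L, RAET1G and ULBP3 are therefore uncertain, and those of ULBP1, MICA and MICB less so. With the counts of ULBP2, RAET1L and RAET1G added up, the log2 fold change was 1.66, and that of MICA and MICB added up was -0.80.

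The promoters of the 3 genes past the upper cutoff are shown because ULBP1 and ULBP2 share a motif that the near copy RAET1L lacks. Each line gives the 250 bases before the RefSeq start site (GRCh38.p14), 5′ to 3′ on the strand of the gene, with capitals for TGACG, the core of the cyclic AMP response element that ATF and CREB factors bind, or its reverse complement CGTCA.
ULBP1 promoter (chr6:149963693-149963942, plus strand): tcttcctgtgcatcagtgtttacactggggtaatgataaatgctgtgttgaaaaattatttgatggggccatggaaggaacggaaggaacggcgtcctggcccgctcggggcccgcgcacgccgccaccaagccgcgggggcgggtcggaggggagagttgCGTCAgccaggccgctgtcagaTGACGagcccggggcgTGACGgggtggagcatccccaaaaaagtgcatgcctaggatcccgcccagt
ULBP2 promoter (chr6:149941764-149942013, plus strand): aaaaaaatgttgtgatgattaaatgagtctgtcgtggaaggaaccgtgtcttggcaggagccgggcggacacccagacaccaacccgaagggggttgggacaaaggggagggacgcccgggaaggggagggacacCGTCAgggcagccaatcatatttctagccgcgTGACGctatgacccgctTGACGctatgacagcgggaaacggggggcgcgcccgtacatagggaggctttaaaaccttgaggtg
RAET1L promoter (chr6:150025533-150025782, minus strand): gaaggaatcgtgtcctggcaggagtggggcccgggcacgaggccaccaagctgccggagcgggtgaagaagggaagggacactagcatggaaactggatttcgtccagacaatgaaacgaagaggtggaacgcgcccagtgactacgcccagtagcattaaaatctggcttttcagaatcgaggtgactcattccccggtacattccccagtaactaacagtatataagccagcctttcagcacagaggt
ULBP1 held 3 matches, beginning 89, 67 and 51 bases before the start, and ULBP2 held 3 matches, beginning 115, 83 and 66 bases before it. In both promoters the first match was in reverse and the next pair was forward. No match was found in the RAET1L promoter above or in the same window of ULBP3, RAET1E, RAET1G, MICA and MICB. Searched on both strands, TGACG occurred in 21.2% of 35116 RefSeq promoters of this length and 3 or more times in 1.01%. The composite element of ATF4 and C/EBP factors, searched as TGATGNAAN, occurred in 3.13% of promoters and in none of the members. MICA and MICB each held GAATTTTC, a match to the heat shock factor pair GAANNTTC that occurred in 5.78% of promoters, at 135 and 139 bases before the start. GGGCGG, the box bound by SP1 and related factors, occurred in 42.6% of promoters and in those of ULBP1, ULBP2, ULBP3, RAET1G, MICA and MICB. The RefSeq starts of ULBP1 (chr6:149963943) and ULBP3 (chr6:150069121) lie upstream of the GENCODE starts. Those of MICA (chr6:31403595) and MICB (chr6:31498145) lie inside the GENCODE genes. RAET1E had several RefSeq starts, and the window of each was searched. Matches describe only these letters in these windows.

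The differences were set beside those of the genes around the family. Within 300 kb of the ULBP and RAET1 cluster, 7 of 8 other protein-coding genes in the table were tested, and 1 rose and 1 fell past the cutoffs, with a median log2 fold change of 0.14. PPP1R14C, 74.0 kb from ULBP3, rose by 1.84 on the log2 scale (adjusted p = 2.43e-10, edgeR), NUP43, a nuclear pore gene, fell by 1.01 (adjusted p = 1.62e-11, edgeR), and LRP11, the closest at 19.3 kb from RAET1E, had a log2 fold change of 0.25. Around MICA and MICB, 27 of 40 were tested, and 5 rose and 4 fell, with a median of 0.14. By the same cutoffs 12.5% of all genes tested were higher and 11.4% were lower, and nothing is read from the counts of neighbours. The largest of these differences were in VWA7 (2.80), LY6G6C (2.65), TCF19 (-2.29) and HLA-B (1.82), so that HLA-B, the tested class I gene nearest to MICA, was on the opposite side of zero.

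The genes whose pattern over the 6 libraries was most like that of ULBP1, by the smallest root mean square difference in centred log2(CPM + 1), were ASNS (0.0595), POU2F3 (0.0874), GBP1 (0.103), KIF21B (0.120) and RASD1 (0.134). ASNS, which makes asparagine and is a standard target of the amino acid response, had 1074, 1046 and 994 counts in controls and 13652, 12499 and 13159 counts with ILL. GBP1, an interferon-inducible GTPase, had 404, 314 and 382 counts in controls and 4525, 5190 and 5104 counts with ILL. With 2 groups of libraries this measure mainly finds genes with an increase of like size on that scale.

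Around the ligands, 59 genes of 9 lists were examined, from the receptor to regulators and the neighbouring recognition systems. Of the 53 tested, 16 rose and 4 fell past the cutoffs, against 12.5% and 11.4% of all genes tested, with a median log2 fold change of 0.28. The receptor itself belongs to the killer cell and not to the tumour cell: KLRK1, which encodes NKG2D, had 0 counts in every library, which allows up to 0.0871 CPM in the library with the highest such limit (3 counts). Its adaptors were likewise at or near zero, with 4, 6 and 2 counts of HCST in controls and 14, 6 and 7 with ILL, and with TYROBP at 0 counts except for 8 in ILL library 1.

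Proteases that release ligands from the surface, and their inhibitors, made up a list of 9 tested genes, of which 3 rose and 0 fell past the cutoffs, with a median of 0.45. ADAM17, a sheddase of MICA, MICB and ULBP proteins, had 1431, 1231 and 1098 counts in controls and 2864, 2719 and 2642 counts with ILL, a fitted change of 1.20 on the log2 scale (SE 0.07, edgeR adjusted p = 8.6e-14). MMP14, a membrane-bound metalloproteinase, rose by 1.63 (adjusted p = 9.82e-17, edgeR), and TIMP3, an inhibitor of ADAM17, rose by 2.02 (adjusted p = 1.69e-20, edgeR). ADAM10, the other main sheddase, had a log2 fold change of -0.0033 (standard error 0.06). Transcripts of a sheddase and of its inhibitor were thus both higher.

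Of 11 tested genes reported to regulate the ligands, 1 rose and 1 fell past the cutoffs, with a median of -0.10. ATF4, the stress response factor reported to drive ULBP1 transcription, had 10885, 9356 and 9814 counts in controls and 30786, 31832 and 33359 counts with ILL, without overlap. The fitted change was 1.74 on the log2 scale (SE 0.05, edgeR adjusted p = 7.85e-20). E2F1, a cell cycle factor, fell by 2.15 (adjusted p = 8.3e-19, edgeR). RBM4, an RNA-binding protein reported to aid ULBP1 splicing, had a log2 fold change of -0.20 and HSF1, the heat shock factor, had 0.14, both below the 2-fold cutoff.

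The kinases upstream of these pathways were examined as 2 lists. Of the 4 DNA damage kinases, a route known to raise NKG2D ligands, 0 rose and 2 fell past the cutoffs, with a median of -1.42. Of all genes tested 12.5% rose and 11.4% fell past them. By the adjusted p alone 0 of these 4 rose and 4 fell, against 36.2% and 36.9% of all genes. CHEK1 fell by 1.86 (adjusted p = 2.32e-16, edgeR) and CHEK2 fell by 2.25 (adjusted p = 1.39e-13, edgeR). Of the 4 kinases of eIF2 alpha, whose activity raises ATF4 translation, 0 rose and 0 fell past the cutoffs, with a median of 0.23. By the adjusted p alone 2 of the 4 eIF2 alpha kinases rose and 1 fell, against the same 36.2% and 36.9%. With 4 genes in each list nothing is read from these shares. Kinase activity was not measured.

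The MHC class I genes, which inhibit NK cells through other receptors, had fold changes of the other sign than MICA and MICB. Of 7 genes 6 were tested and all 6 rose past the cutoffs, with a median of 1.66. HLA-E, the ligand of the inhibitory receptor NKG2A, had 10437, 9669 and 10155 counts in controls and 31820, 32315 and 29834 counts with ILL, a fitted change of 1.70 on the log2 scale (SE 0.05, edgeR adjusted p = 2.02e-19). HLA-F rose by 1.91, HLA-B by 1.82, HLA-C by 1.61 and B2M, the shared light chain, by 1.12, with adjusted p-values of these 4 from 7.18e-15 down to 2.84e-19 (edgeR). HLA-G, at 0 to 6 counts, was not tested. Of the 6 class I-like relatives 5 were tested, MR1 (1.20) and FCGRT (1.27) rose past the cutoffs, 0 fell, and the median was 0.54. The classical genes are near copies of each other, so their separate values are uncertain.

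Of 10 ligands of other activating receptors and adhesion molecules, 9 were tested, and 2 rose and 0 fell past the cutoffs, with a median of 0.51. ICAM1, the adhesion ligand of LFA-1, had 368, 412 and 304 counts in controls and 866, 980 and 881 with ILL, a fitted change of 1.40 on the log2 scale (SE 0.11, edgeR adjusted p = 3.68e-11). CLEC2B, the ligand of NKp80, had 27, 7 and 31 counts in controls and 84, 63 and 70 with ILL, a fitted change of 1.80 on the log2 scale (SE 0.43, edgeR adjusted p = 0.000548). The DNAM-1 ligands PVR (0.16) and NECTIN2 (0.63) and the NKp30 ligand NCR3LG1 (-0.36, adjusted p = 0.199, edgeR) did not pass the cutoffs. Among 5 inhibitory ligands outside MHC class I, with a median of -0.25, 2 rose and 1 fell past the cutoffs: CDH1, the KLRG1 ligand E-cadherin that also served as an epithelial marker, rose by 2.07, CEACAM1 rose by 1.61 and CDH2 fell by 1.56 (adjusted p = 0.000644 for CDH2, the largest of the 3, edgeR).

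**Figure D4:**
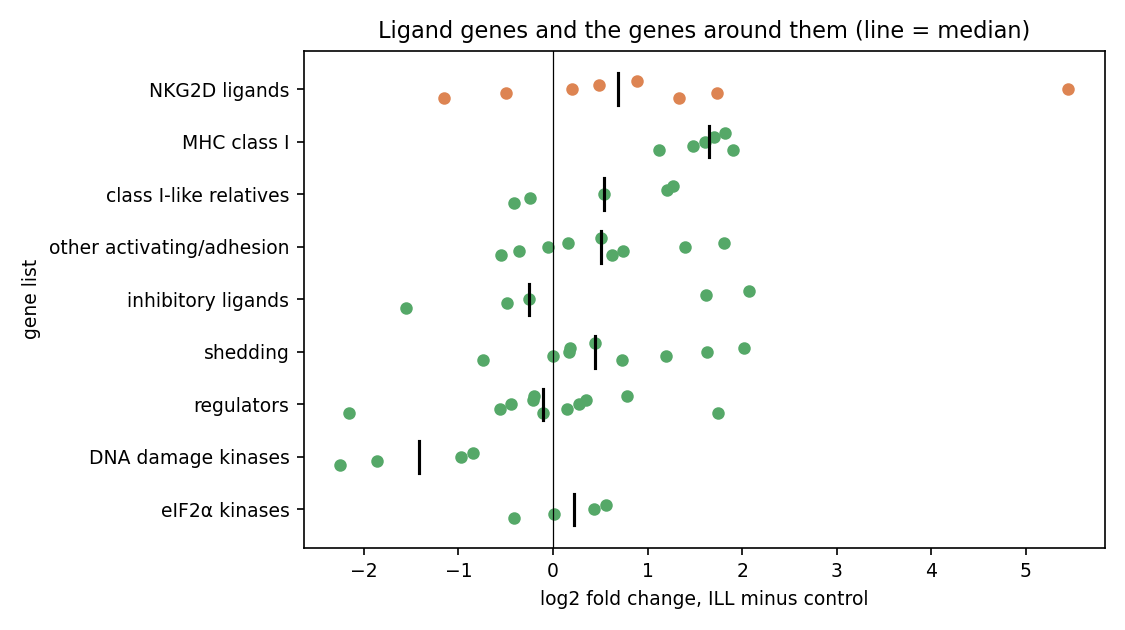
Log2 fold change (horizontal axis, ILL minus control) of each tested gene in the NKG2D ligand family (orange) and in 8 lists around it (green), with a line at each list's median. MHC class I genes lie between 1.12 and 1.91, DNA damage kinases lie below zero, and the ligands spread from -1.15 to 5.45.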

How the data were processed

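The 6 RNA-seq libraries of HCCC9810 cells, 3 with ILL and 3 with vehicle, were grouped by the sample labels. The authors deposited 2 tables, one of unnormalized counts and one of FPKM, with genes listed by symbol and a column for each library. CPM here are counts per 1000000 after TMM scaling. The submitters' processing notes name DESeq2 and GRCh38, and the aligner, counting program, annotation and strand setting are not given in the sources used here. A count divided by a whole-number length and the library total returned 100% of 88055 nonzero deposited FPKM values within 0.1%, so both tables hold the same reads. Libraries of the same group were further apart than counting noise allows (chi-square per degree of freedom 5.15 to 11.8), and each library was 1 replicate.

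Genes were filtered with filterByExpr, normalised by TMM and tested with edgeR's quasi-likelihood test (edgeR 4.0.16, R 4.3.3) over 13066 genes with Benjamini-Hochberg adjustment. Standard errors of edgeR values are the absolute log2 fold change divided by the square root of the F statistic, not errors reported by the fit. The biological coefficient of variation was 0.0717. At totals of 34282764 to 37758569 counts, the spread between libraries is the main limit on precision for ULBP2, ULBP3, MICA and MICB. Counting error is the larger limit for RAET1E, RAET1G and the control levels of ULBP1 and RAET1L. The fit was tested on simulated data. The members and lists were chosen with earlier results of these data known. Named genes are the members, a fixed set of genes from the lists, at most 4 genes past the cutoffs per list and direction with a mean of at least 1 CPM, at most 6 neighbours and the 5 genes most like ULBP1. COL1A1, VWF and other cell type markers were named outside that rule. The alternatives were other size factors, filters, DESeq2 1.42.0, limma 3.58.1 on log2 FPKM, a replicate block, each library left out, and similar genes added up. Similarity among the members and RAET1K came from GENCODE release 29 transcripts and promoters from RefSeq, with all 8 members matched. A few genes of the lists enter the counts but are not reported singly here.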

Additional observations from a re-analysis of the deposited data

How the results depend on the processing

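Of the 8 ligand genes, the count higher with ILL was 3 and the count lower was 1 under other size factors, scaling by library size only, other filters on low counts, DESeq2 and limma on log2(FPKM + 0.1). Limma on log2(FPKM + 1) gave 2 higher, since RAET1L was at 0.99, and tested 6 of the 8, without RAET1E and RAET1G. That scale called 668 genes higher and 923 lower over all genes against 1635 and 1485, and put ULBP1 at 2.50, as the pseudocount exceeds the control level of ULBP1. Leaving out 1 library gave 3 to 4 higher and 1 lower; the 4 came without ILL library 3, which put RAET1G past the cutoffs, while RAET1G lost its adjusted p without ILL library 2 (0.73). RAET1E lay between -0.06 and 0.54 over the 13 alternatives that tested it. Of the genes around the ligands, 14 to 16 rose and 3 to 5 fell over all alternatives. The ULBP1 share of the summed level with ILL was 6.56% without RAET1G and RAET1L and 11.8% as a share of summed counts, and in controls it was 0.237% and 0.413%. Leaving out 1 library gave 6.03% to 6.06% with ILL and 0.219% to 0.228% in controls. With the replicate number as a block, 3 ligand genes were higher and 1 lower, 16 and 4 genes around them rose and fell, and 1627 and 1484 of all genes did. Same-numbered libraries did not deviate together (correlations of 0.0067, -0.020 and -0.060), so they were not treated as paired. No library correlated best with the library of its own number in the other group. Depth limits RAET1E, RAET1G and the control levels of ULBP1 and RAET1L.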
